A study of Mus musculus with 14 samples.

Results

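The 31 genes described here mark cells of the brain and spinal cord. They comprise 11 oligodendrocyte genes, 9 astrocyte genes and 11 genes of inhibitory, motor and other neurons, out of 55291 gene symbols measured. They were selected on their measured levels in these same libraries, since most were low in 2 libraries and high in the other 12. The difference between those 2 libraries and the rest is therefore the way the genes were found, and it is given as a description without a test.

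RNA from tibia of wild-type female C57Bl/6 mice was sequenced in 14 libraries. Sham-operated mice gave 3 libraries (sham). The remaining mice were ovariectomized (OVX). Of these, 3 libraries came from mice given the vehicle PBS, 3 from mice given hippuric acid (HA), 2 from mice given 3-3-PPA, a hydroxyphenyl propionic acid, and 3 from mice given the bisphosphonate zoledronic acid (ZA). They are written OVX-PBS, OVX-HA, OVX-PPA and OVX-ZA. Treatment began 2 to 4 days after surgery and lasted 8 weeks, and neither the age of the mice nor the doses are given in the sources used here. Whether different libraries stand for different mice is not stated, so p-values measure only the spread between these samples. Libraries held 11889906 (OVX-ZA replicate 1) to 35396452 (OVX-HA replicate 1) counts over the genes tested. Levels are counts scaled to library size with the trimmed mean of M values (TMM), written CPM. In the 12 libraries that were not low, 10 bone genes led by Col1a1, Acp5 and Ctsk summed to 1649.5 to 4401 CPM, so the labelled tissue was represented in all of them, as it was in OVX-PBS replicate 1 (4116 CPM) and OVX-HA replicate 2 (6332 CPM).

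Oligodendrocytes wrap the axons of the central nervous system in myelin, whereas Schwann cells do so in peripheral nerve. Astrocytes clear transmitter from synapses and control water and potassium around neurons. Inhibitory neurons of the spinal cord and brainstem release glycine and GABA, and motor neurons release acetylcholine onto muscle. Peripheral nerves in bone carry axons and Schwann cells, but the cell bodies of oligodendrocytes and astrocytes lie in the central nervous system.

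Promoter sequence was available in RefSeq (GRCm38.p6, the build also called mm10) for 27 of the 31 genes. The 250 bases upstream of the start site that RefSeq lists are shown for the oligodendrocyte genes with the highest level (Mobp) and with a short match (Opalin), for the astrocyte filament gene Gfap and for the glycine transporter gene Slc6a5, because these genes carry the account below. Capitals mark ACAAAG or its reverse complement CTTTGT, the core bound by SOX factors, of which SOX10 is a regulator of myelin genes. The windows are, for Mobp, chr9:120149492-120149741 (+ strand), for Opalin chr19:41077114-41077363 (- strand), for Gfap chr11:102897201-102897450 (- strand) and for Slc6a5 chr7:49910049-49910298 (+ strand, the first of 2 start sites). GENCODE places the outermost start of Gfap, Slc6a5 and Mobp further upstream than RefSeq does. On the gene coordinates given below, which are from GENCODE, the Gfap window therefore lies wholly inside the gene, and the Slc6a5 and Mobp windows overlap their genes, that of Slc6a5 over most of its length.
Mobp: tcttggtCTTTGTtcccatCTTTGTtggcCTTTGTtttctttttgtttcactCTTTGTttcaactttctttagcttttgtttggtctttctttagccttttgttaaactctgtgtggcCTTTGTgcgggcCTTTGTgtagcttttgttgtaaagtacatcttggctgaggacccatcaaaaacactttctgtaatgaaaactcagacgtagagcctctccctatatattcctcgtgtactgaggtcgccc
Opalin: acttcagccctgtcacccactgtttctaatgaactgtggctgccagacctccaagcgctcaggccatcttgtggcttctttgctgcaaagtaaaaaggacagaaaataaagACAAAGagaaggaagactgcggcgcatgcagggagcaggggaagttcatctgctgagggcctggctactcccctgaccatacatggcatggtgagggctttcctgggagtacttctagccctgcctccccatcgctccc
Gfap: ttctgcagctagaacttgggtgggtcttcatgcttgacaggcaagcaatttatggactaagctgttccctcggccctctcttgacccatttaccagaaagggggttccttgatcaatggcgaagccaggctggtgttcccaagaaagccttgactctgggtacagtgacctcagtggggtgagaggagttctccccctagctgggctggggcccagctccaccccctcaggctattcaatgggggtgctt
Slc6a5: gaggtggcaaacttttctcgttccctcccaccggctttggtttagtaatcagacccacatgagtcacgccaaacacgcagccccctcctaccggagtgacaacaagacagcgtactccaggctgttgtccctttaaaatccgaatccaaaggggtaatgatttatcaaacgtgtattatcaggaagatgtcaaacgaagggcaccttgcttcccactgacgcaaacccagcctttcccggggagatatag

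The Mobp window held 6 matches, and it was the only one of 27025 gene promoters with 6 or more (0.0037%). Across the genes described, 3 of 27 promoters held a match (Mobp, Opalin and Gad1), which is 11.1% against 16.5% of all promoters of this length. The motif was chosen after the Mobp sequence had been seen, and a match is only a string of letters in this window.

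Mobp, which encodes a protein that compacts central myelin, had the highest level of the 31 genes per length of exon, and astrocyte genes followed it. Mobp (ENSMUSG00000032517, mm10 chromosome 9, 120149707-120181484, + strand) read 489.8, 507 and 223 CPM in sham and 5.55, 285 and 305 in OVX-PBS replicates 1 to 3. The OVX-HA libraries held 507, 1.17 and 486 CPM. The OVX-PPA libraries held 449.8 and 418 CPM, and those of OVX-ZA 153, 378 and 418. OVX-PBS replicate 1 and OVX-HA replicate 2 thus lay far below their own groups, and OVX-ZA replicate 1 was the lowest of the remaining 12 libraries with sham replicate 3 next. In bulk RNA, fewer cells of a type and less RNA per cell cannot be told apart. Per kilobase of exon (union of annotated exons) the median Mobp level over those 12 libraries was 61.0 CPM, followed by Gfap at 43.1 and the astrocyte glutamate transporter gene Slc1a2 at 24.9. Aqp4 (15.7), Mog (15.5), Olig1 (15.1) and Ermn (14.9) lay within 1 CPM per kilobase of each other and cannot be ordered, since each varied by 23.0 to 32.5% (CV) over the 12 libraries. The lowest were Chat (0.847), Glra1 (0.454) and Grin2b (0.286).

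Most of the other oligodendrocyte genes followed the same order of libraries. Mog, the glycoprotein on the outer face of central myelin, ran from 9.32 to 34.1 CPM in the 12 libraries and was 0.343 in OVX-PBS replicate 1 and 0.117 in OVX-HA replicate 2. Ermn, a cytoskeletal protein of myelinating cells, ran from 18.4 to 66.3 CPM and was 1.03 and 0.234 in these libraries. Olig1 and Olig2, the transcription factors that specify the lineage, had medians of 32.6 and 8.77 CPM over the 12 libraries. In the 2 low libraries Olig1 read 0.515 and 0.205 CPM, and Olig2 0.172 and 0. Hapln2, a link protein at nodes of Ranvier, fell from a median of 22.2 CPM to 0.572 and 0.117, and Opalin, a membrane protein of central myelin, from 8.26 to 0.0572 (1 count) and 0.117 (4 counts). The homeobox gene Nkx6-2 (median 4.25 CPM) read 0.229 and 0.234, and Tmem88b (40.6) read 2.57 and 2.84.

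A pair of genes in the oligodendrocyte class did not share this pattern. Aspa, which encodes the enzyme that splits N-acetylaspartate, read 28.1, 21.7 and 18.6 CPM in sham, 16.0, 19.7 and 20.4 in OVX-PBS, 26.0, 11.7 and 24.1 in OVX-HA, 24.1 and 20.4 in OVX-PPA and 16.7, 25.5 and 22.0 in OVX-ZA. Enpp6, a choline phosphodiesterase of newly formed oligodendrocytes, read 15.0, 15.4 and 10.1 CPM in sham, 9.61, 11.4 and 13.4 in OVX-PBS, 13.4, 10.9 and 14.03 in OVX-HA, 15.7 and 16.8 in OVX-PPA, and 11.3, 11.9 and 15.3 in OVX-ZA. Both low libraries thus kept 53.5 to 79.1% of the median level of these 2 genes, and Enpp6 in OVX-HA replicate 2 lay above sham replicate 3. The other 30 genes were lower in both low libraries than in each of the other 12, a pattern that 2683 genes (12.3% of those tested) showed and that was used to choose the list.

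**Figure D1:**
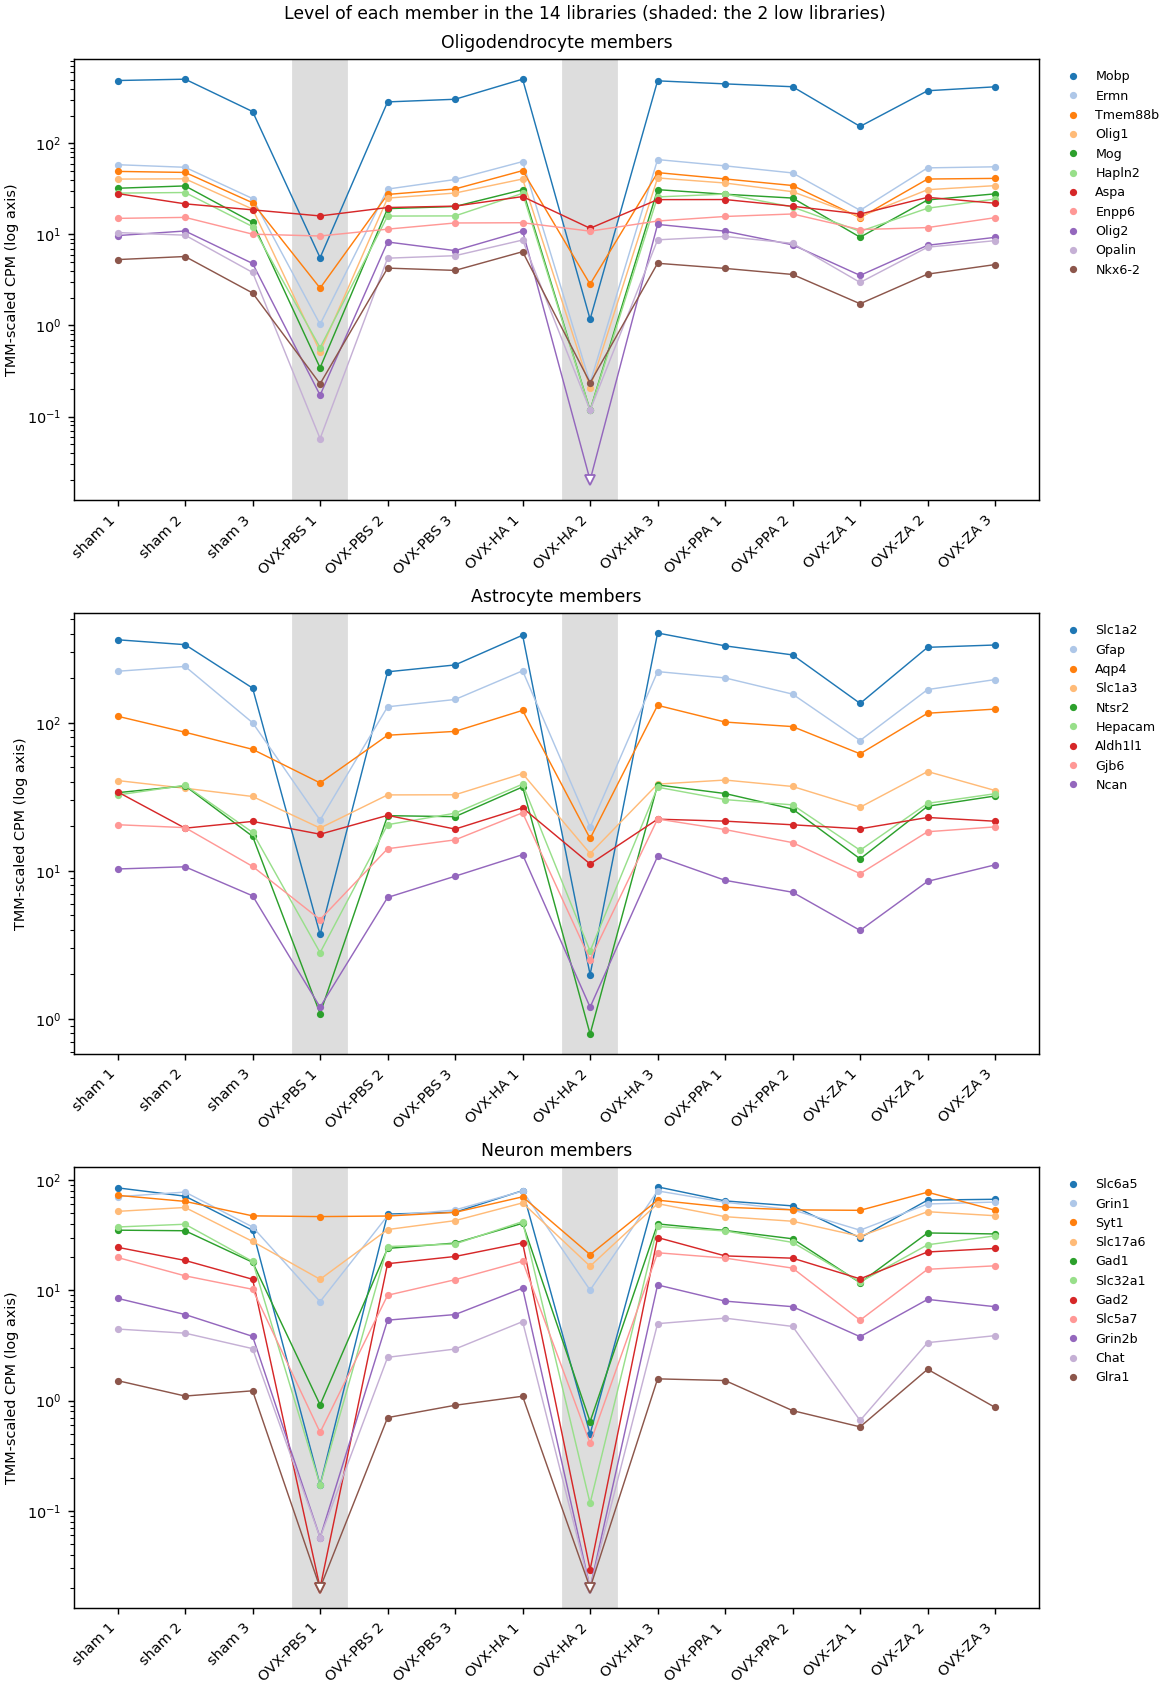
TMM-scaled CPM (log axis) of each gene in the 14 libraries, 1 panel per class, with open triangles for 0 counts and lines that only join values of 1 gene. Mobp drops from 153 to 507 CPM to 5.55 and 1.17 in the shaded libraries, whereas Aspa reads 16.0 and 11.7 CPM there against 16.7 to 28.1 elsewhere.

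Of the 9 astrocyte genes, 2 nearly vanished in the low libraries and 6 kept 10% or more of their median in at least 1 of them. Slc1a2 encodes the glutamate transporter that is the most abundant in forebrain and spinal astrocytes. It read 363, 337 and 171 CPM in sham, 3.72, 221 and 246 in OVX-PBS, 390.3, 1.99 and 404 in OVX-HA, 331 and 287 in OVX-PPA and 135, 323 and 335 in OVX-ZA. The same 2 libraries were again the low ones, at 1.14 and 0.609% of the median of the other 12. Ntsr2, a neurotensin receptor of astrocytes, had a median of 29.7 CPM and read 1.09 and 0.790 in them.

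Gfap (ENSMUSG00000020932, mm10 chromosome 11, 102887336-102900912, - strand) encodes the intermediate filament of astrocytes and is also made by non-myelinating Schwann cells. It read 223, 240.1 and 100.02 CPM in sham, 22.0, 128 and 144 in OVX-PBS, 224, 19.7 and 222 in OVX-HA, 201 and 156 in OVX-PPA and 75.9, 168 and 196 in OVX-ZA. The low libraries were close to each other and retained 12.1 and 10.8% of the median. Ncan, a proteoglycan of brain matrix, retained 13.5% in both, and Hepacam, an adhesion protein of astrocyte contacts, 9.53 and 9.75%.

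Aqp4, Slc1a3 and Aldh1l1, which are also made outside the nervous system, kept larger shares of their level. Aqp4, the water channel of astrocyte endfeet, is also present in fast skeletal muscle fibers and read 39.2 CPM in OVX-PBS replicate 1 against 16.5 in OVX-HA replicate 2. The 6 muscle genes (led by Myh4, Acta1 and Ckm) summed to 51409 and 30658 CPM in these libraries, and the part of muscle in the Aqp4 level was not tested. Slc1a3, a second glutamate transporter that bone cells also make, read 19.4 and 13.1 CPM against 26.9 to 46.8 in the 12 libraries. Aldh1l1, a folate enzyme that is abundant in liver as well, read 17.7 and 11.1 CPM against 19.1 to 34.1, the highest value being that of sham replicate 1. Gjb6, a connexin of astrocytes and of epithelia, read 4.69 and 2.52 CPM against 9.57 to 24.7.

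Genes of inhibitory neurons were all under 5% of their median in both low libraries. Slc6a5 (ENSMUSG00000039728, mm10 chromosome 7, 49910146-49963856, + strand), the glycine transporter of glycinergic terminals, read 84.9, 71.3 and 34.9 CPM in sham, 0.172, 49.1 and 51.0 in OVX-PBS, 80.1, 0.498 and 86.7 in OVX-HA, 64.6 and 58.3 in OVX-PPA and 29.9, 65.8 and 66.9 in OVX-ZA. The 2 low values came from 3 and 17 counts, with exact 95% Poisson intervals of 0.0354 to 0.501 and 0.290 to 0.797 CPM that cover counting error only. Slc32a1, which loads glycine and GABA into vesicles, had a median of 29.2 CPM and read 0.172 and 0.117. Gad1 and Gad2, the enzymes that make GABA, had medians of 32.8 and 20.4 CPM. Gad1 read 0.915 and 0.644 in the low libraries, and Gad2 had 0 counts in OVX-PBS replicate 1, at least 119-fold below its median by the limit of 3 counts in that library. Glra1, a subunit of the glycine receptor, was near the limit everywhere (0.577 to 1.92 CPM in the 12 libraries, 0 counts in both low ones), so its drop of at least 6.39-fold in OVX-PBS replicate 1 and 12.5-fold in OVX-HA replicate 2 is bounded by depth.

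Cholinergic genes mark motor neurons and their terminals. Slc5a7, which takes up choline, had a median of 15.7 CPM and read 0.515 and 0.410 in the low libraries. Chat, the enzyme that makes acetylcholine, had a median of 3.98 CPM and read 0.0572 (1 count) and 0. Chat also had the widest range within the 12 libraries, 8.47-fold, because OVX-ZA replicate 1 held only 8 counts (0.660 CPM) where the next lowest library, OVX-PBS replicate 2, held 81 (2.47 CPM). The other cholinergic gene was also lowest in OVX-ZA replicate 1, with Slc5a7 at 5.36 CPM against 9.01 to 21.9 elsewhere among the 12. Grin2b, an NMDA receptor subunit, had a median of 7.10 CPM and read 0.0572 and 0.

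Slc17a6, Grin1 and Syt1 are not limited to neurons of the central nervous system. Slc17a6, a vesicular glutamate transporter that sensory neurons also use, read 12.6 and 16.5 CPM in OVX-PBS replicate 1 and OVX-HA replicate 2 against 27.7 to 62.1 in the other libraries. Grin1, the obligatory NMDA receptor subunit, read 7.89 and 10.04 against 35.05 to 79.7. In both genes OVX-PBS replicate 1 lay at 0.761 and 0.786 times OVX-HA replicate 2, and the 9 sensory neuron genes (Calca, Avil, Scn10a and 6 more) at 0.719 times in sum. The part of sensory neurons in these levels was not tested. Syt1, the calcium sensor of synaptic vesicles, read 72.6, 64.0 and 47.3 CPM in sham, 46.6, 47.1 and 50.9 in OVX-PBS, 70.4, 21.0 and 65.7 in OVX-HA, 56.6 and 53.6 in OVX-PPA and 53.1, 77.5 and 53.2 in OVX-ZA. Its order differed from that of the sensory genes, with OVX-PBS replicate 1 at 2.21 times OVX-HA replicate 2.

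The 31 genes thus differed in how much of them was left. In both low libraries 17 of 31 were under 5% of the median of the other 12 (7 of 11 oligodendrocyte, 2 of 9 astrocyte and 8 of 11 neuron genes), and 11 kept 10% or more in at least 1 of them (2, 6 and 3). The values next to these limits were 3.66% (Ntsr2) and 5.51% (Nkx6-2) around 5%, and 9.75% (Hepacam) and 12.1% (Gfap) around 10%. Among the 12 libraries the genes that nearly vanished had a median range of 3.33-fold (2.39 to 8.47). That of the 11 that persisted was 2.13-fold (1.64 to 3.25), and that of the 3 in between was 3.29-fold (2.80 to 3.73). These ranges overlapped, and the widest, that of Chat, rested on 8 counts in OVX-ZA replicate 1.

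**Figure D2:**
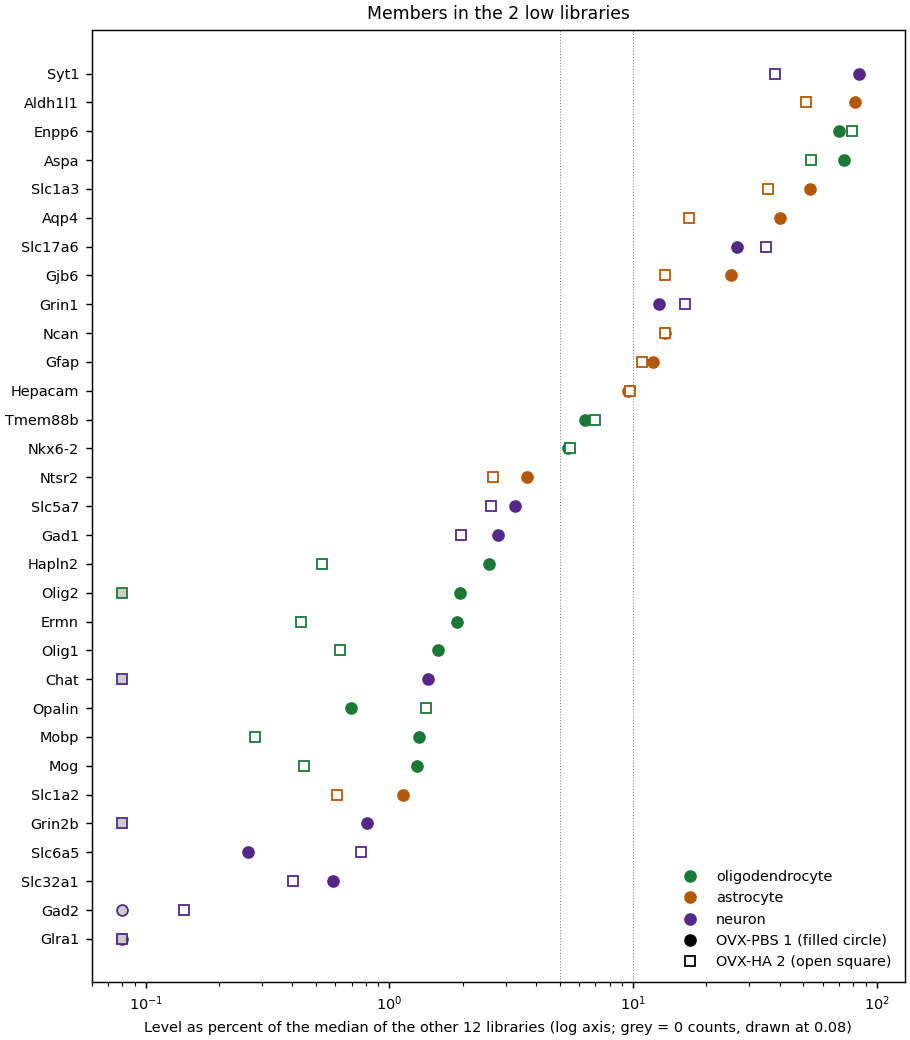
Level of each gene in OVX-PBS replicate 1 (filled circles) and OVX-HA replicate 2 (open squares) as a percent of its median over the other 12 libraries, on a log axis with dotted lines at 5 and 10% and grey symbols at the left edge for 0 counts. The 17 genes at the bottom lie under 5% in both libraries, and Syt1, Aldh1l1, Enpp6 and Aspa at the top lie between 38.2 and 84.5%.

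Did the 3 cell classes keep the same proportions in the 12 libraries? Summed CPM ran from 259 to 786 for oligodendrocyte genes, from 358 to 927 for astrocyte genes and from 196 to 441 for neuron genes, which are ranges of 3.03-, 2.59- and 2.25-fold. The ratio of oligodendrocyte to neuron genes ran from 1.32 to 2.02 (median 1.77, 1.53-fold) and that of astrocyte to neuron genes from 1.83 to 2.33 (median 2.11, 1.27-fold). The proportions thus moved less than the amounts. OVX-ZA replicate 1, which had the least of all 3 classes, also had the lowest ratios by summed CPM, at 1.32 and 1.83. This depended on the measure. With the mean of log2 CPM of each class its oligodendrocyte to neuron ratio was 1.22, beside a median of 1.24. Its astrocyte to neuron ratio was then 2.61, the highest of the 12 (median 2.35). When only the 17 genes that nearly vanished were summed, a choice made after seeing the data, the ratios ranged 1.30-fold (2.79 to 3.63) and 1.09-fold (1.83 to 2.01) while the class sums ranged 3.22-, 3.00- and 3.06-fold. OVX-ZA replicate 1 then had an astrocyte to neuron ratio of 1.92 beside the median of 1.91, while its oligodendrocyte to neuron ratio of 2.79 was still the lowest of the 12 (median 3.01). Single genes make up most of 2 of these sums. The astrocyte sum holds 2 genes, and Slc1a2 had a median of 327 CPM beside 357 for the sum. Mobp had a median of 418 CPM beside 567 for the oligodendrocyte sum.

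Genes of the 3 classes were low in the same libraries and high in the same libraries. Of the 31 genes, 26 had their lowest value among the 12 libraries in OVX-ZA replicate 1, and 26 had sham replicate 3 among their lowest 2. OVX-HA replicate 1 held the highest value of 9 genes and OVX-HA replicate 3 that of 11. Together the 31 genes took up 0.0829% of counts in OVX-ZA replicate 1 and 0.221% in OVX-HA replicate 1, against 0.0189% in OVX-PBS replicate 1 and 0.0146% in OVX-HA replicate 2.

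By summed CPM of all 31 genes, the oligodendrocyte to neuron ratio was 0.531 in OVX-PBS replicate 1 and 0.559 in OVX-HA replicate 2. The astrocyte to neuron ratio was 1.62 and 1.41. These values depended on the measure. With the mean of log2 CPM the oligodendrocyte to neuron ratio was 1.67 and 1.02, against 1.10 to 1.44 in the 12 libraries. The astrocyte to neuron ratio was then 9.71 and 7.38, against 2.15 to 2.61. The genes that nearly vanished gave other values, which describe these 2 libraries only, since the genes were chosen by their levels in them. Within a library, Mobp made up 83.7 to 87.8% of the counts of Mobp and Slc6a5 together in the 12 libraries. It made up 97.0% (97 of 100 counts, exact Clopper-Pearson 95% interval 91.5 to 99.4%) in OVX-PBS replicate 1 and 70.2% (40 of 57, 56.6 to 81.6%) in OVX-HA replicate 2. Summed over the genes that nearly vanished, oligodendrocyte counts were 73.6 to 78.4% of oligodendrocyte and neuron counts in the 12 libraries, 81.4% (144 counts against 33, 74.8 to 86.8%) in OVX-PBS replicate 1 and 53.6% (67 against 58, 44.5 to 62.6%) in OVX-HA replicate 2. Reads without molecular identifiers are not independent molecules, and these intervals cover counting error only, not the spread between samples, so no difference in proportions was tested.

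**Figure D3:**
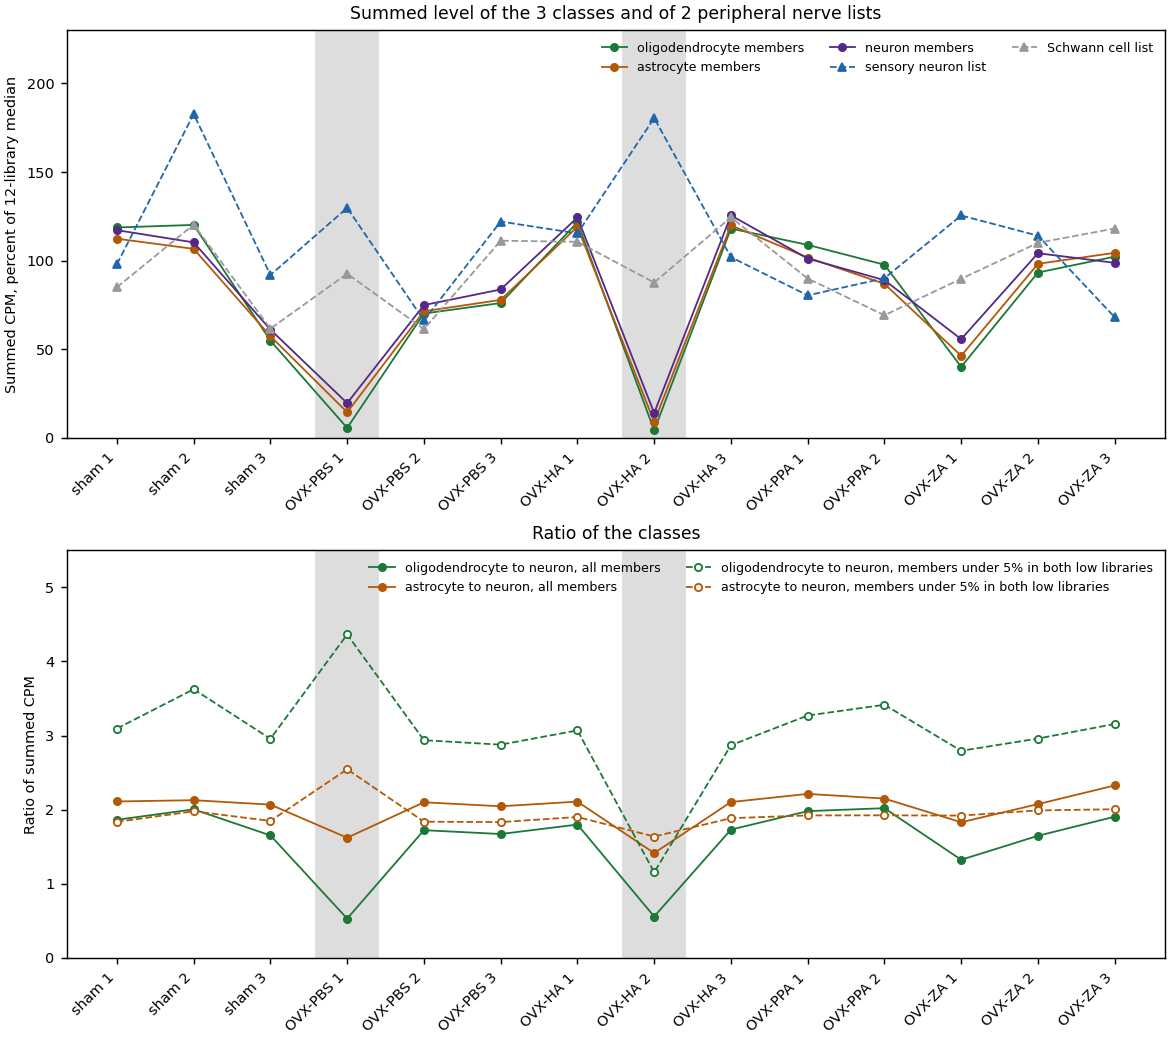
Upper panel, summed CPM of the 3 classes, of 9 sensory neuron genes and of 8 Schwann cell genes in each library, as percent of the median of the 12 unshaded libraries. Lower panel, ratios of the summed classes over all genes (solid) and over the 17 that nearly vanished (dashed). The 3 classes drop to 4.27 to 19.6% in the shaded libraries, where the sensory and Schwann lists lie at 87.7 to 180.5%.

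Other genes of the nervous system, from lists drawn up with earlier results of these data known, were low in the same libraries to different degrees. All 12 other myelin and oligodendrocyte genes were lower in both low libraries than in each of the 12 others, beside 12.3% of all genes. Of the 12 genes, 5 fell under 10% of the median, a share that was not counted over all genes. The sum of the 12 had a median of 3744 CPM and read 525 and 444 in OVX-PBS replicate 1 and OVX-HA replicate 2. Mbp, a myelin protein gene that Schwann cells also use, read 299.5 and 246.5 CPM in these libraries against 933 to 2648 elsewhere. Of 8 oligodendrocyte precursor genes, led by Bcan, Ptprz1 and Cspg5, all 8 were lower and 2 fell under 10%. Of 10 other astrocyte genes, S100b and Gja1 among them, 9 were lower and 1 fell under 10%, and of 9 pan-neuronal genes, led by Nefl, Snap25 and Nefm, 3 were lower and 0 fell under 10%.

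Lists that are not of the central nervous system did not follow. Of 9 sensory neuron genes none was lower in both low libraries than in all others, and their sum was 236 and 329 CPM there against 121 to 333 elsewhere. The 8 Schwann cell genes, Pmp22 and Prx among them, summed to 739.7 and 699.9 CPM against 490.2 to 994. Of these 8 genes 1, Pllp, was lower in both, near the 12.3% of all genes tested. Bone genes summed to 4116 and 6332 CPM against 1649.5 to 4401, with OVX-HA replicate 2 above all other libraries. Marrow blood cell genes (Hbb-bs, Hba-a1, S100a8 and 5 more) summed to 19079.7 and 32056 CPM against 9598 to 16573, so both low libraries lay above the other 12 in this sum. The globin genes Hbb-bs and Hba-a1 made up most of it, at 12016 and 6057 CPM in OVX-PBS replicate 1. In that library Elane, Mpo and S100a8 lay below their medians over the 12, at 70.2, 77.2 and 95.4%. In OVX-HA replicate 2 they lay at 144, 150 and 155%. The other genes of the list were above their medians in both low libraries.

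Genes of particular regions gave mixed values. The cerebellar gene Gabra6 had 0 counts in every library, and the forebrain genes Tbr1 and Emx1 were at most 0.172 and 0.124 CPM. Lamp5, which forebrain and spinal interneurons use, read 0.457 and 0.322 CPM in the low libraries against 15.5 to 46.6. Of the 8 forebrain genes 3 were lower in both low libraries, beside 12.3% of all genes tested. The sum of the 8 read 28.9 and 40.0 CPM against 30.1 to 73.4. Of 5 microglial genes, 1, Sall1, was lower in both low libraries, at 0.457 and 0.146 CPM against 4.04 to 11.6, while Tmem119, which bone cells share, read 24.2 and 27.3 against 11.7 to 21.6. Of 8 ependymal and choroid plexus genes, led by Foxj1, 2 were lower, and their sum read 3.89 and 3.66 CPM against 6.02 to 13.6. Among 5 motor neuron genes 2, Slc18a3 and Mnx1, were lower in both low libraries, beside 12.3% of all genes tested. Mnx1 had 0 counts in both and at most 0.868 CPM elsewhere. Isl1 read 6.23 and 7.49 CPM in the low libraries and Isl2 11.1 and 15.6, above their medians of 4.13 and 7.43. The sum of the 5 genes was 120 and 152 CPM against 63.0 to 162. Slc18a3, which loads acetylcholine into vesicles, read 0.629 CPM and 0 against 3.38 to 11.2, while Prph, a filament of peripheral axons, read 102 and 129 against 50.1 to 129.

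The genes most like the 31 over the 12 libraries were chosen by the Pearson correlation of their log2 CPM with the mean of the list. They were Ttyh1 (r = 0.996, Spearman's rho 0.993), Kcnj10 (0.995), Necap1 (0.995), Psd2 (0.994), Bcas1 (0.994), Sparcl1 (0.994), Itih3 (0.993), Ly6h (0.992), B3galt5 (0.992) and Sh3gl3 (0.992). These are descriptions over 12 libraries that share a tissue and a scaling. Kcnj10, the potassium channel of astrocytes, had a median of 156 CPM and read 10.6 and 9.92 in the low libraries, which were not used to find it. Itih3 had a median of 33.4 CPM and read 0.743 and 0.263, whereas Necap1, with a median of 52.3 CPM, read 31.3 and 32.3.

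Did the genes differ between the treatment groups? None of the 31 passed in any of 5 comparisons (edgeR quasi-likelihood with Benjamini-Hochberg adjustment over 21761 genes), and all 31 were tested. Because the 31 rise and fall together, a count of them in 1 direction is close to a single observation. OVX-PBS enters 4 of the comparisons and sham 2, so the comparisons share samples. Log2 differences are given ± their standard error (SE) from the fit.

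In OVX-PBS against sham, 0 of 31 genes were called, as were 0% of all genes tested. All 31 had lower estimates, against 48.6% of all genes. The class medians of the log2 difference were -0.91 for oligodendrocyte, -0.68 for astrocyte and -0.76 for neuron genes, beside 0.0079 for all genes. For Mobp, edgeR gave -1.03 ± 1.35 (adjusted p = 0.914), for Gfap -0.94 ± 0.785 (0.913) and for Slc6a5 -0.92 ± 1.26 (0.918). At an unadjusted p under 0.05, 0 of 31 passed against 2.73% of all genes, and DESeq2 called 0 of 31. Without the 2 low libraries the class medians were -0.33, -0.21 and -0.29, with 0 of 31 called (0% of all genes) and 0 at an unadjusted p under 0.05 (2.03%). OVX-PBS replicates 2 and 3 then lay between sham replicate 3 and the other sham libraries in all 3 class sums, so the groups overlapped.

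In OVX-HA against OVX-PBS, 0 of 31 genes were called (0% of all genes), with 30 estimates higher and that of Aldh1l1 lower (-0.01), against 53.2% of all genes higher. Each group held 1 low library, and the class medians were 0.62, 0.62 and 0.63 for oligodendrocyte, astrocyte and neuron genes, beside 0.01 for all genes. Mobp differed by 0.74 ± 1.34 (edgeR adjusted p = 1.00). At an unadjusted p under 0.05, 0 of 31 passed against 1.47% of all genes, and DESeq2 called 0. Without both low libraries all 31 estimates were higher, with class medians of 0.62, 0.65 and 0.63, and 0 were called (0% of all genes). The remaining OVX-HA libraries held 786 and 763 CPM of oligodendrocyte genes, 921 and 927 of astrocyte genes and 437 and 441 of neuron genes. They did not overlap with the remaining OVX-PBS libraries at 453 and 492, 552 and 602, and 263 and 294. With 2 libraries against 2, such a separation arises often by chance, and the share of all genes that showed it was not counted. The class sums rise and fall together, so they are close to a single observation. The 2 libraries left out were picked for their low levels of these same genes. In the fit without both low libraries, 1 gene had an unadjusted p under 0.05, against 6.25% of all genes. It was Grin2b (0.89 ± 0.348, edgeR adjusted p = 0.682). Group sizes were 2 against 2 in that fit, and the SE rests on the spread in all 12 libraries. With only OVX-PBS replicate 1 left out the class medians were 0.07, 0.13 and 0.16, and with only OVX-HA replicate 2 left out 1.14, 1.08 and 1.15.

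In OVX-PPA against OVX-PBS, 0 of 31 genes were called (0% of all genes), with all 31 estimates higher against 47.0% of all genes. Class medians were 0.86, 0.55 and 0.87, beside -0.02 for all genes, and Mobp differed by 1.13 ± 1.47 (edgeR adjusted p = 1.00). Enpp6, which persisted in the low libraries, was the 1 gene with an unadjusted p under 0.05 (1.87% of all genes). Both OVX-PPA libraries lay above all 3 of OVX-PBS in this gene, and the share of all genes that did so was not counted. Enpp6 differed by 0.50 ± 0.211 (edgeR adjusted p = 1.00, DESeq2 0 called). Without the low libraries the class medians were 0.39, 0.26 and 0.30, with 0 of 31 called (0% of all genes) and 0 at an unadjusted p under 0.05 (1.86%).

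In OVX-ZA against OVX-PBS, 0 of 31 genes were called (0% of all genes), with all 31 estimates higher against 43.8% of all genes. Class medians were 0.61, 0.53 and 0.57, beside -0.04 for all genes, and 0 of 31 had an unadjusted p under 0.05 (3.36% of all genes). DESeq2 called 0. Without the low libraries the medians were 0.12, 0.12 and 0.14, with 28 estimates higher and 3 lower. In that fit 0 of 31 were called (0.0278% of all genes) and 0 had an unadjusted p under 0.05 (3.89%).

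The comparison of OVX-ZA with sham holds neither low library. There 0 of 31 genes were called (0% of all genes), with 27 estimates lower against 60.7% of all genes, and 0 had an unadjusted p under 0.05 (2.79%). Class medians were -0.30, -0.22 and -0.18, beside -0.05 for all genes, and DESeq2 called 0. The direction rested on single libraries, since 12 estimates were lower and 19 higher without OVX-ZA replicate 1, and 17 and 19 were lower without sham replicate 1 and 2. Each group held 1 library with less of the classes, OVX-ZA replicate 1 and sham replicate 3, and class sums overlapped, with oligodendrocyte genes at 507 ± 217 CPM in OVX-ZA and 633 ± 241 in sham (mean ± SD, n = 3 each). When the fit left out the low libraries, whose spread enters the error of every group, the SE of Mobp went from 1.34 to 0.348 and its estimate from -0.36 to -0.32. In that fit 0 of 31 were called (0.00926% of all genes) and 0 had an unadjusted p under 0.05 (4.85%).

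**Figure D4:**
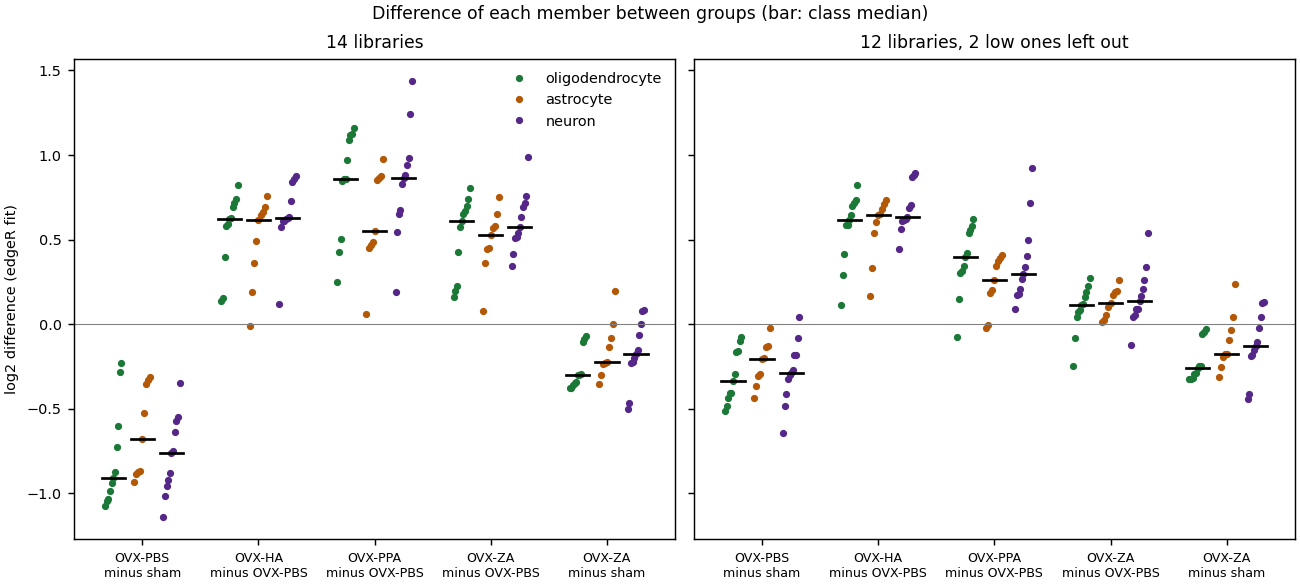
Log2 difference of each gene between groups in 5 comparisons, by class, from the fit of 14 libraries (left) and of the 12 libraries that are not low (right), with bars at class medians. The medians of OVX-PBS minus sham move from -0.91, -0.68 and -0.76 to -0.33, -0.21 and -0.29, and those of OVX-HA minus OVX-PBS stay at 0.62 to 0.65.

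Counting could blur a few of these values. Exons of Slc32a1 overlap those of an antisense gene over 24.9% of their length, Grin1 over 13.5%, Nkx6-2 over 12.9%, Olig1 over 7.26%, Ermn over 6.52% and Glra1 over 5.84%, and those of Aldh1l1 overlap genes of both strands over 13.4%. Whether counting used strand is not given in the sources used here, so reads of these genes and of their partners may not be told apart.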

How the data were processed

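Total RNA of tibia went through a stranded mRNA kit and single reads of 75 nt, per the labels' protocols. STAR 2.7.8a, Bowtie2 2.2.5, Partek, CASAVA 1.8.1 and mm10 are named, with no role for any, per the submitters' processing notes. Which tool counted reads, and with which annotation, is not given there. The authors deposited a table of estimated counts per gene symbol (20.7% of values depart from a whole number by more than 0.01), and these were rounded. A second deposited table of normalized values was not used. All 14 columns matched sample titles.

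Genes passing the edgeR filter by group (21761) were fitted across all genes in 1 edgeR quasi-likelihood model (edgeR 4.0.16, R 4.3.3) with TMM scaling over those genes, a mean per group, and 9 residual degrees of freedom. Tests were two-sided, with Benjamini-Hochberg adjustment at 0.05. Log2 CPM for correlations used a prior count of 2. DESeq2 1.42.0, other scalings, no filter, a replicate block and left-out libraries were alternatives. The fit was tested on simulated data. Coordinates and exon lengths are from GENCODE M21 (mm10).

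The 31 genes, the 2 low libraries and the gene lists were chosen with earlier results of these data known. Named genes are all 31, up to 3 of the most abundant genes of each other list, and the 10 genes most correlated with the 31, predicted genes left out. Genes named from other lists beyond these 3 were chosen after their values were seen. Depth was 11889906 to 35396452 counts over the genes tested, and 3 counts correspond to 0.172 CPM in OVX-PBS replicate 1 and 0.0878 CPM in OVX-HA replicate 2. Values of some genes of these other lists are not reported here.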

Additional observations from a re-analysis of the deposited data

How the results depend on the processing

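The count of 0 called genes among the 31 held in each of the 5 comparisons with DESeq2, with size factors in place of TMM, with no filter on low counts, with the replicate block, without the 2 low libraries and with each library left out in turn (range 0 to 0). Over all genes DESeq2 called 32 in OVX-ZA minus OVX-PBS and 15 in OVX-ZA minus sham, where edgeR called 0. Same-numbered replicates were not visibly more alike than others. Of 26 same-numbered pairs 8 correlated above 0.1 in their deviations from the group mean, as did 19 of 52 other pairs (medians 0.0185 and 0.0125). Deviations within groups of 2 or 3 are forced to oppose each other, so this cannot settle whether samples were paired. The replicate block called 0 of 31 in every comparison. Class medians rested on single libraries. Leaving out 1 library moved the oligodendrocyte median of OVX-PPA minus OVX-PBS between 0.39 and 1.34 (without OVX-PBS replicate 1 and 3), that of OVX-PBS minus sham between -1.37 and -0.36 (without OVX-PBS replicate 3 and 1), that of OVX-HA minus OVX-PBS between 0.07 (without OVX-PBS replicate 1) and 1.14 (without OVX-HA replicate 2), and that of OVX-ZA minus OVX-PBS between 0.10 and 1.07 (without OVX-PBS replicate 1 and 3). The astrocyte and neuron medians of OVX-ZA minus sham turned to 0.07 and 0.12 without OVX-ZA replicate 1.

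The lowest of the 12 libraries exceeded the higher of the 2 low ones 7.08-fold in oligodendrocyte, 3.20-fold in astrocyte and 2.84-fold in neuron genes. With only the genes under 5% in both low libraries, added after seeing the data, these became 26.0-, 30.6- and 40.6-fold, by construction. With the mean of log2 CPM, so that abundant genes weigh no more than others, the neuron value became 13.3-fold. The median class ratios over the 12 libraries, 1.77 and 2.11, became 1.24 and 2.35 with the mean of log2 CPM. They became 3.01 and 1.91 with the genes under 5% only, since other genes enter or weigh differently. Scaling could not alter the ratios of summed CPM, since the factor of a library cancels in them.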
